A study of Mus musculus with 15 samples.

Results

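The genes described here are 9 markers of vascular smooth muscle cells and pericytes: Myh11, Acta2, Cnn1, Tagln, Notch3, Mylk, Rgs5, Smtn and Abcc9. They were taken by symbol, and 9 of the 9 were found among the 16658 genes of the deposited table. Their levels were followed through mouse hearts after temporary closure of a coronary artery, with or without drugs that act on blood clotting. Polyadenylated RNA came from heart tissue that included the infarct and the muscle around it, so each value is an average over many cell types.

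All mice were male C57BL/6 wild types, 8 to 10 weeks old. Per the labels, a main artery of the left ventricle (the left anterior descending) was closed for 90 min and the heart was reperfused for 24 h. Rivaroxaban, an inhibitor of coagulation factor Xa, was given at 3 mg/kg and dabigatran, an inhibitor of thrombin (factor IIa), at 10 mg/kg, each for 7 days beforehand. Activated protein C (aPC), an anticoagulant protease with effects on cells, was given at 1 mg/kg 30 min beforehand, and drugs were resumed 2 h after surgery. The remaining groups are sham and untreated. The operation is described only once in the labels, and they do not state it for each sample, so untreated is kept here as a label.

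The analysis covers 11 libraries: sham 003, 006 and 007, untreated 17 and 19, Riva-313 and Riva-319 (rivaroxaban), Dabi-202 and Dabi-204 (dabigatran), and aPC-791 and aPC-792. Values listed for a group follow that order. Each library held between 26203566 and 36135006 reads on listed genes. Nothing beyond the numbers in the labels says that libraries of a group came from separate animals, so each p-value measures the spread between these libraries.

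Vascular smooth muscle cells wrap arteries and arterioles and set their diameter, and pericytes lie along capillaries and small venules. Contraction starts when calcium activates myosin light chain kinase, which phosphorylates myosin so that it pulls on actin filaments. Genes of the contractile set are driven by serum response factor with its coactivator myocardin at CArG boxes, and smooth muscle cells can lower this set when they leave the contractile state. In the heart, mural cells share the vessel wall with endothelial cells, and pericytes are known for their part in capillary flow after ischemia.

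Promoters are shown for Acta2, whose promoter is a textbook example of CArG control, and for Rgs5, whose difference between rivaroxaban and dabigatran hearts was called under every alternative tried. RefSeq sequences of the 250 bases upstream of a start site, on GRCm38.p6, were at hand for 7 of the 9 genes: Acta2, Cnn1, Notch3, Mylk, Rgs5, Smtn and Abcc9. They were searched on both strands for a CArG box, allowing up to 1 mismatch, for TGGGAA, a core of sites for the Notch partner RBPJ, and for TATATA. The Acta2 window held 2 CArG boxes with 1 mismatch each, at -84 and at -34 from the start, printed with 10 bases on either side and the box in capitals.
Acta2 box at -84, chr19:34255438-34255467, minus strand: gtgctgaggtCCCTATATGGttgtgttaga
Acta2 box at -34, chr19:34255388-34255417, minus strand: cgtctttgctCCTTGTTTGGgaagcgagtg
The last bases of the second box begin a TGGGAA. In GENCODE, 217 of the 250 bases of this Acta2 window lie in an exon.

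The Rgs5 window, on the plus strand at chr1:169655251-169655500, lies outside annotated exons and held neither a CArG box nor TGGGAA. It has a TATATA from -30 to -25, which is in capitals.
Rgs5: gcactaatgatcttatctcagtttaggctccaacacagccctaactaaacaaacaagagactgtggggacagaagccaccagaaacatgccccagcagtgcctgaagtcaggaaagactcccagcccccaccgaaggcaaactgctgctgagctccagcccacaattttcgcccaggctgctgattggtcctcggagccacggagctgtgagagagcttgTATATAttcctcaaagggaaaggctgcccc
Among 32851 promoter windows of this length, 18.6% held a CArG box with up to 1 mismatch and 1.47% an exact one. Of the 7 windows, 1 held the former and 0 the latter. The RBPJ core was found in 21.6% of all windows and in 3 of the 7, those of Acta2, Smtn and Abcc9. The letters capitalised in the Rgs5 window occur in 5.25% of all windows and in 1 of the 7. These matches describe letters in short windows.

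Levels were compared between genes as log2 CPM per kilobase of exon (CPM is a read count divided by library size; here it was also divided by summed exon length), averaged over the 11 libraries. Rgs5, a regulator that speeds the switching off of G proteins and a widely used pericyte marker, stood at 7.07 on this scale, followed by the cytoskeletal gene Smtn at 5.87 and the actin gene Acta2 at 5.64. Abcc9 (the sulfonylurea receptor SUR2 of potassium channels) stood at 5.30, Tagln at 4.32, Myh11 at 3.04, Notch3 at 2.94 and Mylk at 2.22. Cnn1 was the least abundant at 0.02. It rested on 24 to 225 reads per library, so counting error weighs more on it than on the others.

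All further values are log2 CPM of 1 gene, where a step of 1 is a doubling, and gene positions are those of GENCODE M21 on mm10. The labelled tissue was checked first: heart muscle markers summed to between 51003 and 96000 CPM in every library. The 9 genes summed to between 1062 and 2004 CPM. No gene of the group was at 0 in any library.

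Myh11 (chr16:14194535-14291372, minus strand) encodes the smooth muscle myosin heavy chain, the motor protein of contraction. It measured 6.41, 6.57 and 6.67 in the sham libraries, 5.29 and 5.93 in the untreated, 6.52 and 6.86 in the rivaroxaban, 5.48 and 6.17 in the dabigatran, and 4.95 and 4.79 in the aPC libraries. Rivaroxaban and sham overlapped at the top, dabigatran and untreated overlapped in the middle, and the aPC pair lay below every other library. The gaps within the overlapping pairs, 0.14 and 0.21, were smaller than the larger SD of each pair (0.24 and 0.49), while the steps from sham to dabigatran (0.72) and from untreated to aPC (0.74) were larger.

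Mylk (chr16:34745210-35002420, plus strand) encodes myosin light chain kinase. Its levels were 5.95, 6.01 and 6.12 in sham, 5.37 and 5.55 in untreated, 5.95 and 6.10 in rivaroxaban, 5.67 and 5.88 in dabigatran, and 5.14 and 5.16 in aPC hearts. Only sham and rivaroxaban overlapped. Below them, dabigatran, untreated and aPC followed in separate steps of 0.25, 0.32 and 0.31, each larger than the SD within the groups beside it. Its pooled within-group SD, 0.10, was the smallest of the 9 genes.

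Acta2 (chr19:34241090-34255590, minus strand) encodes smooth muscle alpha actin, which activated fibroblasts also make. Its libraries read 6.98, 7.59 and 7.25 in sham, 5.59 and 7.03 in untreated, 6.00 and 6.75 in rivaroxaban, 7.62 and 7.00 in dabigatran, and 6.23 and 6.45 in aPC. Dabigatran and sham overlapped above the rest, except that untreated 19 reached into the sham range. The untreated pair differed by more than a doubling, and the gaps between rivaroxaban, aPC and untreated (0.04 and 0.03) were far inside the spread.

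Tagln (chr9:45929619-45936058, minus strand) encodes transgelin (SM22 alpha), an actin-binding protein of early and mature smooth muscle. It measured 5.62, 5.81 and 5.36 in sham, 4.32 and 5.20 in untreated, 5.21 and 6.00 in rivaroxaban, 5.82 and 5.87 in dabigatran, and 4.87 and 4.30 in aPC libraries. Sham, rivaroxaban and dabigatran lay together above untreated and aPC, which overlapped with each other. The margin was narrow, with Riva-313 only just above untreated 19.

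Cnn1 (chr9:22099216-22109630, plus strand) encodes calponin, an actin-binding inhibitor of the myosin ATPase that marks mature smooth muscle. Its values were 1.73, 2.68 and 1.80 in sham, -0.31 and 0.73 in untreated, 1.57 and 2.49 in rivaroxaban, 1.65 and 2.51 in dabigatran, and 0.90 and 0.46 in aPC. The same 3 groups as for Tagln were high and the same 2 low, with a step of 1.35 between them and no overlap. Its range over the libraries, 3.00, was the widest of the 9 genes.

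Smtn (chr11:3517523-3540612, minus strand) encodes smoothelin, a cytoskeletal protein of contractile smooth muscle with a short visceral and a longer vascular form. It measured 8.52, 8.74 and 8.39 in sham, 7.54 and 7.91 in untreated, 8.71 and 8.48 in rivaroxaban, 7.11 and 8.02 in dabigatran, and 6.98 and 7.59 in aPC. Rivaroxaban and sham overlapped above every library of the other 3 groups. Untreated, dabigatran and aPC followed with gaps of 0.16 and 0.28, inside the SD of 0.65 of the dabigatran pair.

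Notch3 (chr17:32120820-32166852, minus strand) encodes a receptor that smooth muscle cells and pericytes use to receive signals from Jagged ligands on neighbouring endothelium. Its libraries read 6.42, 6.23 and 6.53 in sham, 5.81 and 5.97 in untreated, 6.37 and 6.21 in rivaroxaban, 5.68 and 6.27 in dabigatran, and 5.02 and 5.0 in aPC. The aPC pair lay 0.88 below the untreated mean and apart from all other libraries. Dabi-204 sat at the sham level and Dabi-202 below the untreated pair.

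Rgs5 (chr1:169655501-169695813, plus strand) measured 9.48, 9.46 and 9.44 in sham, 8.86 and 9.16 in untreated, 9.63 and 9.57 in rivaroxaban, 8.50 and 8.77 in dabigatran, and 9.38 and 9.52 in aPC. Rivaroxaban was above sham by 0.14 with no overlap, sham and aPC overlapped, and untreated and dabigatran followed lower in separate steps of 0.44 and 0.38. The aPC libraries, lowest of all for Myh11, Mylk and Notch3, were thus at the sham level for this gene.

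Abcc9 (chr6:142587862-142702315, minus strand) encodes SUR2, whose splice forms serve potassium channels of smooth muscle and pericytes as well as those of heart muscle. It measured 8.36, 8.56 and 8.70 in sham, 8.27 and 8.55 in untreated, 8.82 and 8.40 in rivaroxaban, 7.32 and 8.07 in dabigatran, and 8.25 and 8.70 in aPC. Rivaroxaban, sham, aPC and untreated overlapped in that order of means, with gaps of at most 0.07, and the dabigatran pair lay below every other library.

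**Figure D1:**
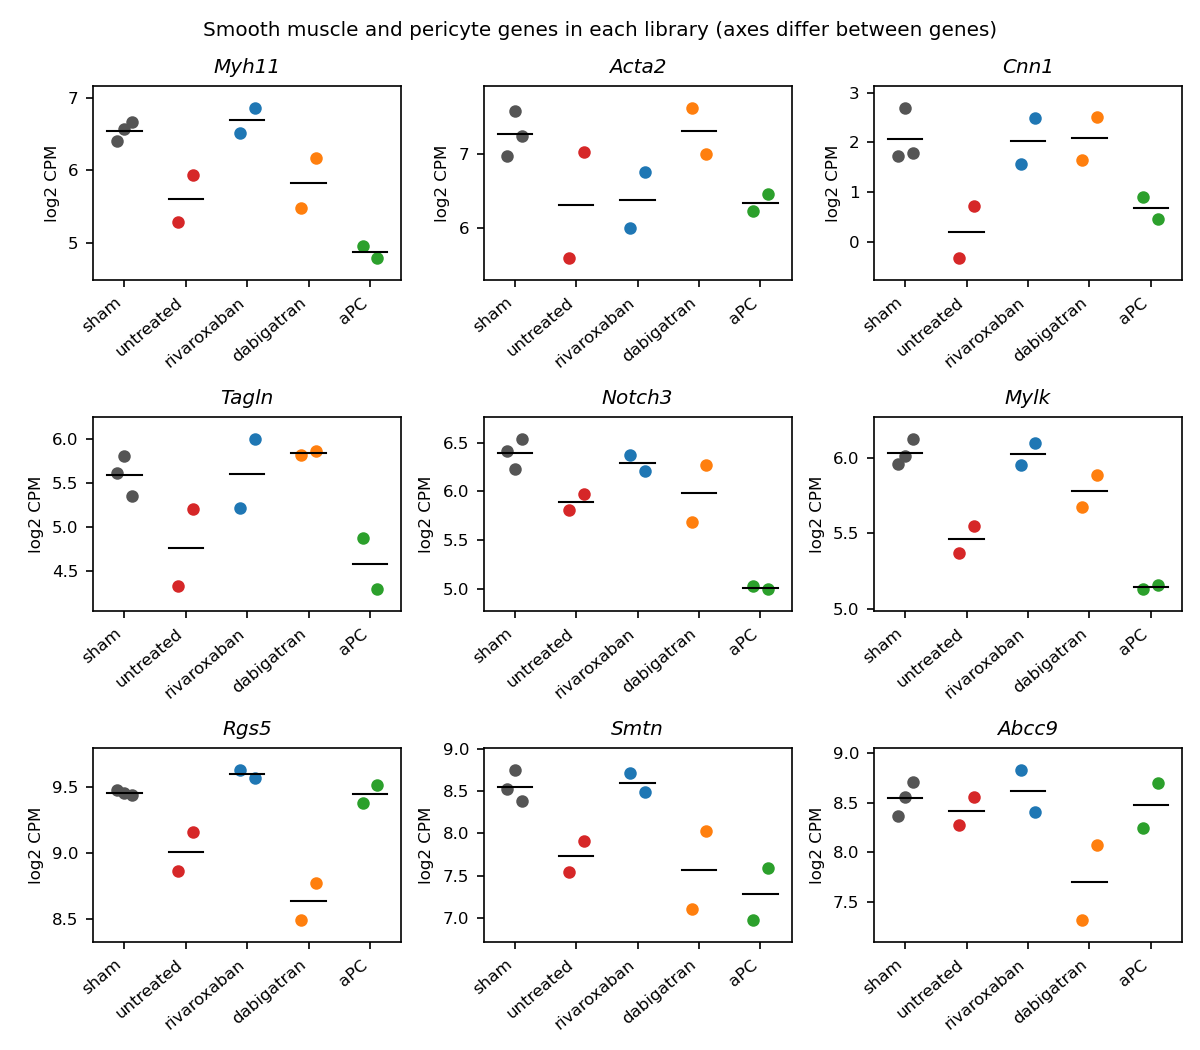
Log2 CPM of the 9 genes (1 panel each, with its own axis) in the 11 libraries. Points are libraries and bars group means. The aPC points are lowest for Myh11, Notch3 and Mylk, and the dabigatran points are lowest for Rgs5 and Abcc9.

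The following differences are log2 fold changes with limma's standard error, n = 2 libraries a group and 3 in sham. Calls required an adjusted p under 0.05 (limma, Benjamini-Hochberg over 13541 tested genes), and all 9 genes of the group were among those tested. In bulk tissue, fewer mural cells and less RNA per mural cell cannot be told apart.

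Untreated hearts were compared with sham hearts for the effect of the untreated state. All 9 genes had a fold change below 0, and 3 were called lower: Myh11, Cnn1 and Mylk. Of all tested genes 10.6% were called and 5.52% called lower. Myh11 fell by 0.94 ± 0.23 (1.92-fold, adjusted p = 0.0322), Mylk by 0.57 ± 0.12 (1.48-fold, adjusted p = 0.0214) and Cnn1 by 1.86 ± 0.45 (3.64-fold, adjusted p = 0.0303). The untreated libraries lay below all sham libraries for 7 genes, against 22.1% of all genes in that direction. The median fold change was -0.82 in the group and -0.03 over all genes.

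The other 6 genes did not pass. Smtn stood at -0.82 ± 0.26 (adjusted p = 0.0696), Tagln at -0.84 ± 0.30 (0.0908) and Acta2 at -0.96 ± 0.38 (0.117). Rgs5 was at -0.45 ± 0.13 (0.0525), Notch3 at -0.51 ± 0.17 (0.0810), and Abcc9 overlapped with sham. The calls on Myh11 and Cnn1 were lost without sham 003, 006 or 007 or without untreated 17, and that on Mylk without any 1 sham library. The fold change of Myh11 was -0.62 without untreated 17 and -1.26 without untreated 19. In those losing runs adjusted p was at most 0.112, and over all 20 alternatives it ran from 0.0151 to 0.276 for these 3 genes. Without untreated 19, 6 genes were called lower, as Acta2 (-1.68), Tagln (-1.27) and Rgs5 (-0.60) joined, and 6 also without Dabi-202 or Dabi-204, as Notch3, Rgs5 and Smtn joined. With library weights, or with only the compared groups in the fit, 0 of the 9 were called here and in each comparison with untreated hearts that follows. Here and below, counts under an alternative come without the share of all genes called in that run, so they describe the group alone.

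Rivaroxaban hearts were compared with untreated hearts. Myh11, Cnn1, Mylk and Rgs5 were called higher, 4 of 9, while 8.47% of all genes were called and 4.02% called higher. Myh11 rose by 1.08 ± 0.25 (2.11-fold, adjusted p = 0.0305), Rgs5 by 0.59 ± 0.14 (1.50-fold, adjusted p = 0.0335) and Mylk by 0.56 ± 0.14 (1.48-fold, adjusted p = 0.0335). Cnn1 rose by 1.82 ± 0.49 (3.54-fold, adjusted p = 0.0478), a call that 4 of 20 alternatives kept. All 9 fold changes were above 0, with a median of 0.59 against 0.02 over all genes. In 7 genes both rivaroxaban libraries exceeded both untreated libraries, against 28.1% of all genes.

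Smtn stood at 0.87 ± 0.29 (adjusted p = 0.0841) and Tagln at 0.84 ± 0.33 (0.122). Acta2 and Abcc9 overlapped between the groups. All 4 calls were lost without Riva-313 or Riva-319, where 0 genes of the group were called, and without sham 006, which enters the shared estimate of the spread. Without sham 003, aPC-791 or aPC-792 the calls on Cnn1 and Mylk were lost, and without sham 003 or 007 those on Cnn1 and Rgs5. The fold change of Cnn1 was 1.30 without untreated 17, where its call was lost too. Over the alternatives adjusted p ran from 0.0166 to 0.256 for these 4 genes.

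Rivaroxaban and sham hearts were then set side by side. Of the 13541 genes 0 were called (0% of all genes), so 0 of the 9 were, and 5.62% of all genes had an unadjusted p under 0.05. In the group 1 gene did: Acta2, at -0.89 ± 0.38 (adjusted p = 0.865), whose rivaroxaban libraries lay below the sham range. With limma voom on the recovered reads 0 of the 9 were called as well. The 95% intervals of Myh11 (-0.37 to 0.66), Mylk (-0.28 to 0.27) and Rgs5 (-0.15 to 0.43) include 0, while that of Acta2 (-1.74 to -0.05) does not. The comparisons of rivaroxaban with untreated and of untreated with sham share the untreated libraries. Those of rivaroxaban with sham and of untreated with sham share the sham libraries.

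Dabigatran hearts were compared with untreated hearts. Cnn1 rose by 1.87 ± 0.49 (3.66-fold, adjusted p = 0.0334) and was the 1 gene of 9 called, while 13.8% of all genes were called and 8.71% called higher. Tagln stood at 1.08 ± 0.33 (adjusted p = 0.0522) with its libraries above the untreated pair, and Acta2 at 1.00 ± 0.42 (0.133). On the other side of 0 were Abcc9 at -0.72 ± 0.26 (0.0871) and Rgs5 at -0.38 ± 0.14 (0.103), both with separate libraries. The median of the group was 0.21 against 0.05 over all genes.

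The Cnn1 call was lost without Dabi-202 or Dabi-204 or untreated 17, with fold changes of 2.30, 1.44 and 1.35, and with quantile normalization, at 1.65. Without untreated 19 the genes called higher were 3, as Acta2 (1.72) and Tagln (1.52) joined Cnn1. Tagln also joined without Riva-313 or Riva-319, at an adjusted p of 0.0490 and 0.0494, which ran from 0.0150 to 0.389 over its alternatives. Without untreated 17, Rgs5 was called lower at -0.53, and without Dabi-204, Abcc9 was called lower at -1.09.

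Dabigatran hearts were also compared with sham hearts. Rgs5 fell by 0.83 ± 0.13 (1.77-fold, adjusted p = 0.00318), Smtn by 0.99 ± 0.26 (1.98-fold, adjusted p = 0.0288) and Abcc9 by 0.84 ± 0.23 (1.80-fold, adjusted p = 0.0320). These were 3 of 9, while 18.5% of all genes were called and 6.82% called lower. Acta2, Cnn1 and Tagln had dabigatran means within 0.25 of sham, with 95% intervals of -0.81 to 0.89, -0.99 to 1.01 and -0.41 to 0.91. Genes were not tested against each other. In 5 genes both dabigatran libraries lay below all sham libraries, against 25.9% of all genes. Myh11 was at -0.72 ± 0.23 (adjusted p = 0.0540). Heart muscle markers, whose cells also express Abcc9, were lower too, at 51003 to 52000 summed CPM against 65559 to 85714 in sham, and their part in the Abcc9 value was not tested.

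Rgs5 was called in all 20 alternatives, at -0.69 to -0.96 with 1 library left out. The calls on Smtn and Abcc9 were lost without any 1 sham library and without Dabi-202, where they stood at -0.53 and -0.47. Without Dabi-204, 5 genes were called lower, as Myh11 (-1.07) and Notch3 (-0.71) joined. Myh11 was called lower without untreated 17 or 19 as well, and with median centring (-0.81), quantile normalization (-0.79), library weights (-0.67) and only the compared groups in the fit.

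**Figure D2:**
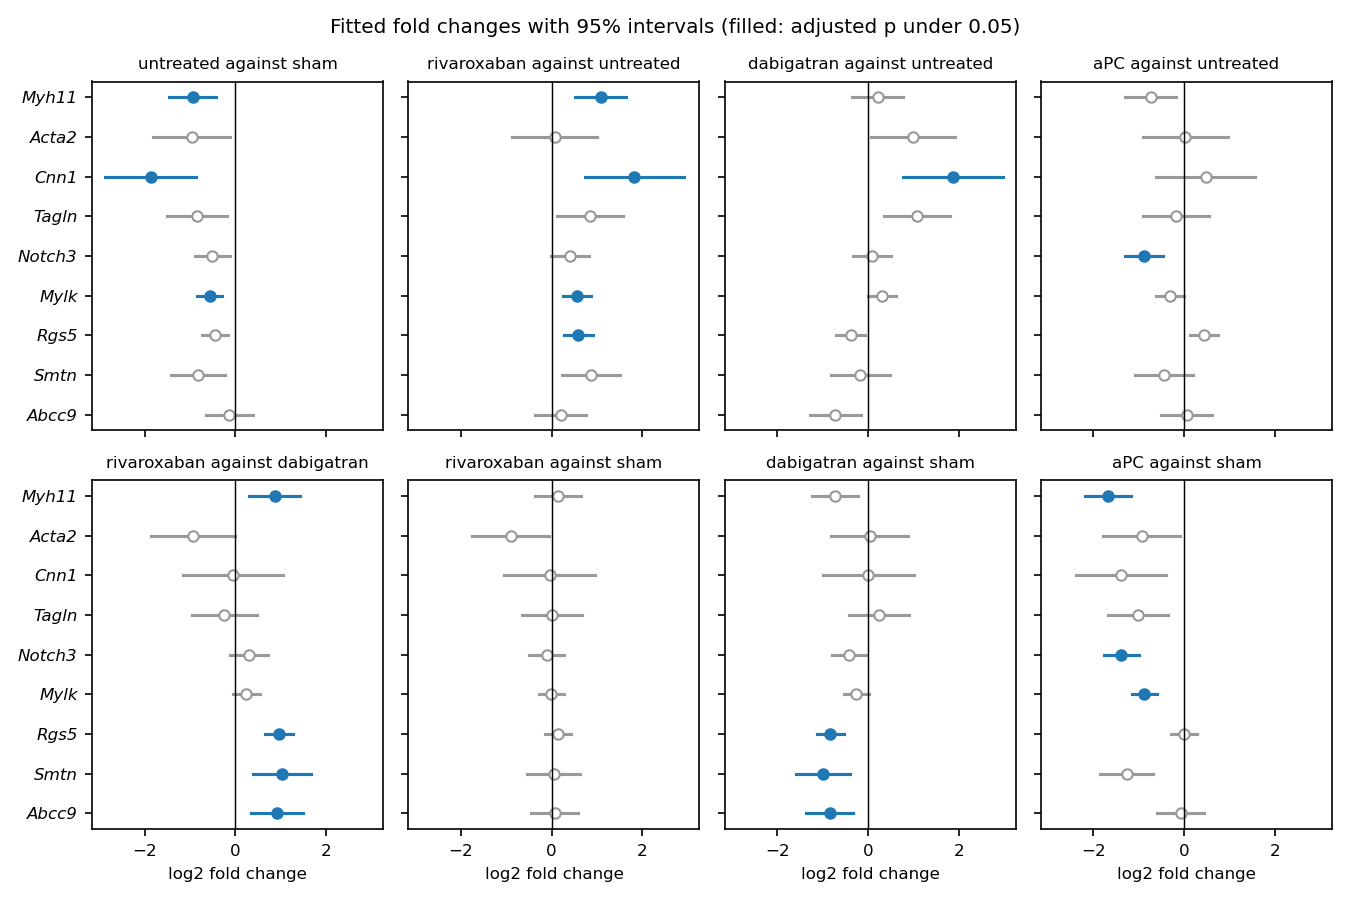
Log2 fold changes of the 9 genes in the 8 comparisons, with 95% intervals from limma. Filled points are called at an adjusted p under 0.05, open points are not. Called points lie below 0 in untreated, dabigatran and aPC against sham, and 0 points are filled in rivaroxaban against sham.

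The direct comparison of rivaroxaban with dabigatran, an inhibitor of factor Xa with an inhibitor of thrombin, rests on the doses of the labels, which differ. Rgs5 was higher in rivaroxaban hearts by 0.96 ± 0.14 (1.95-fold, adjusted p = 0.00164), Smtn by 1.03 ± 0.29 (2.05-fold, adjusted p = 0.0282), Abcc9 by 0.92 ± 0.26 (1.89-fold, adjusted p = 0.0277) and Myh11 by 0.87 ± 0.25 (1.82-fold, adjusted p = 0.0335). These 4 of 9 compare with 23.3% of all genes called and 9.39% called higher. Acta2 lay the other way at -0.93 ± 0.42 (adjusted p = 0.135), with separate libraries. For Cnn1, Tagln, Notch3 and Mylk the difference did not pass. The 95% interval was -1.14 to 1.05 for Cnn1, which allows a doubling either way, -0.96 to 0.48 for Tagln, -0.11 to 0.73 for Notch3 and -0.06 to 0.55 for Mylk. The median of the group was 0.31 and that over all genes near 0, and 5 genes had all rivaroxaban above all dabigatran libraries, against 33.7% of genes.

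Rgs5 was called under all 20 alternatives, between 0.83 and 1.10 with 1 library left out and at an adjusted p of at most 0.0235. Smtn, Abcc9 and Myh11 were called under the 9 alternatives that keep all libraries, and lost their calls without Riva-313 or Riva-319 or without Dabi-202. Without Dabi-202 the fold changes were 0.57 for Smtn, 0.54 for Abcc9 and 0.52 for Myh11. The Myh11 call was also lost without sham 006. Acta2 was called lower without untreated 17 or 19 (adjusted p = 0.0263 and 0.0261, in a range from 0.0261 to 0.542).

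**Figure D3:**
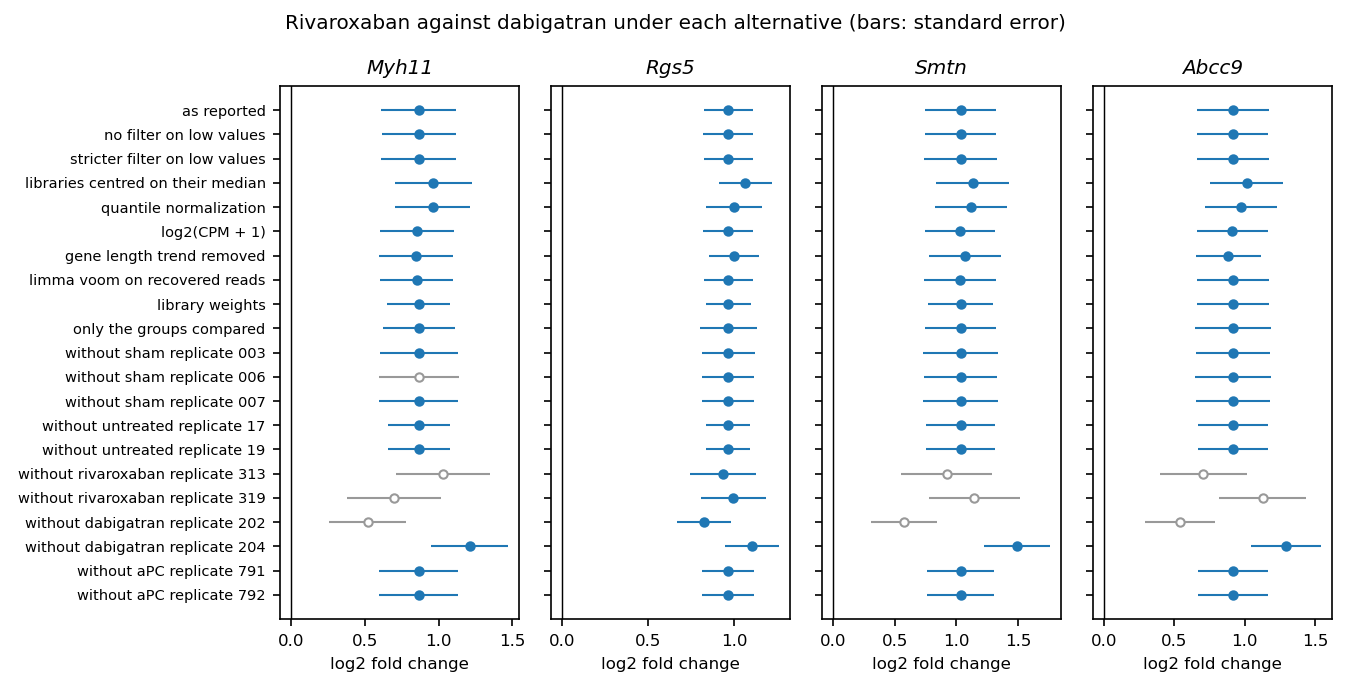
Log2 fold change of rivaroxaban against dabigatran for the 4 called genes, as reported and under each of 20 alternatives, with standard errors. Filled points are called. Rgs5 is filled in every line, and the other 3 open up when a rivaroxaban library or Dabi-202 is left out.

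The aPC hearts were compared with sham and with untreated hearts. Against sham, Notch3 fell by 1.38 ± 0.17 (2.61-fold, adjusted p = 0.00793), Myh11 by 1.68 ± 0.23 (3.20-fold, adjusted p = 0.0134) and Mylk by 0.88 ± 0.12 (1.84-fold, adjusted p = 0.0147). These 3 of 9 compare with 1.17% of all genes called and 1.05% called lower. All 9 fold changes were below 0, with a median of -1.01 against 0.03 over all genes. In 7 genes both aPC libraries lay below all sham libraries, against 23.3% of genes. Smtn stood at -1.27 ± 0.26 (adjusted p = 0.0521), Cnn1 at -1.39 ± 0.45 (0.179), Tagln at -1.01 ± 0.30 (0.140) and Acta2 at -0.93 ± 0.38 (0.259). Rgs5 and Abcc9 overlapped with sham, with intervals from -0.30 to 0.28 and from -0.59 to 0.45.

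All 3 calls were lost without aPC-791 or aPC-792 and without sham 007, and those on Myh11 and Mylk also without sham 003 or 006. Their fold changes moved little in these runs, from -1.76 to -1.59 for Myh11 and from -1.46 to -1.31 for Notch3, while adjusted p reached 0.125 and 0.102. Without untreated 17 or 19, whose spread enters the shared estimate, 5 genes were called lower, as Tagln and Smtn joined. Smtn also joined without Dabi-202 or Dabi-204. With library weights 6 genes were called lower, and with only the compared groups in the fit 7. The share of all genes called in these runs is not given, so these counts describe the group alone.

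Against untreated hearts, Notch3 fell by 0.88 ± 0.19 (1.84-fold, adjusted p = 0.0143), 1 gene of 9, while 17.6% of all genes were called and 10.2% called lower. Myh11 stood at -0.74 ± 0.25 (adjusted p = 0.0675), Mylk at -0.31 ± 0.14 (0.128) and Rgs5 at 0.44 ± 0.14 (0.0572), each with separate libraries. The median of the group was -0.18 against 0.07 over all genes. The Notch3 call was lost without aPC-791 or aPC-792, at -0.89 and -0.87. Myh11 was called lower and Rgs5 higher without Dabi-202 or Dabi-204, Myh11 also without untreated 17 (-1.06) and Rgs5 without untreated 19 (0.59).

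The aPC libraries carry a trend with gene length. The genes in the longest 10% stood at -0.11 and -0.07 in them relative to the mean over libraries, and those in the shortest 10% at 0.23 and 0.13. Other libraries deviated as well. In Dabi-202 the longest 10% stood at -0.14 and the shortest at 0.03, and in sham 007 at 0.16 and -0.11. In the aPC libraries the trend fitted at the exon length of each gene was -0.09 and -0.07 for Notch3. It was -0.08 and -0.06 for Myh11 and -0.11 and -0.09 for Mylk. With the trend removed the same counts were called, 3 lower against sham and 1 lower against untreated. Gm42418, a gene that overlaps ribosomal RNA sequence, took 6.78% and 6.73% of the reads in the aPC libraries and between 0.997% and 2.09% in the other 9. Its part in the fold changes was not tested.

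Other genes linked to smooth muscle and pericytes were counted from lists that do not hold the 9. The list of the contractile apparatus summed to between 12913 and 18710 CPM per library, and the 9 genes to between 1062 and 2004. That list was drawn up with genes not particular to smooth muscle among the others, such as Des, Ldb3, Casq2, Tpm1, Vcl, Flna and Rhoa. Which cells the RNA of these lists came from was not tested. Of 22 genes of the contractile apparatus, 2 were called lower in untreated against sham hearts, with a list median of -0.33 against -0.03 over all genes, of which 5.52% were called lower. They were Tpm2 (beta tropomyosin), which fell by 1.32 ± 0.22 from 5.30 to 3.97, and Ppp1r14a, an inhibitor of the myosin phosphatase, which fell by 1.43 ± 0.36. Against untreated, 1 gene was called higher in rivaroxaban (Tpm2, by 1.33 ± 0.24) and 8 in dabigatran hearts, among them Tpm2 by 1.64 ± 0.24, Ppp1r14a by 1.78 ± 0.39 and Csrp1 by 0.93 ± 0.17. Of all genes 4.02% and 8.71% were called higher in these comparisons. In rivaroxaban against dabigatran 7 of the 22 were called lower and 0 higher, including Vcl (vinculin) by 0.80 ± 0.18, against 14% of all genes called lower. This direction is opposite to that of the 4 called genes of the group and the same as that of Acta2, which did not pass. Against sham, 7 of the 22 were called higher and 1 lower in dabigatran hearts, against 11.7% and 6.82% of all genes. The list median there was 0.25. In aPC against sham hearts 0 were higher and 1 lower, with a median of -0.07, against 1.05% of all genes called lower.

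Of 14 pericyte markers, 4 were called lower and 1 higher in untreated against sham hearts, with a median of -0.46, against 5.52% and 5.07% of all genes. Vtn (vitronectin) fell by 1.44 ± 0.27, Colec11 (a soluble lectin) by 1.46 ± 0.26 and Anpep (aminopeptidase N) by 1.20 ± 0.27, while Steap4, a metalloreductase, rose by 0.83 ± 0.15. Rivaroxaban against untreated gave 5 higher and 2 lower (4.02% and 4.45% of all genes), with Colec11 up by 1.77 ± 0.28 and Steap4 down by 0.94 ± 0.16. In rivaroxaban against dabigatran 2 were higher, Colec11 among them by 1.72 ± 0.28, and 2 lower, against 9.39% and 14% of all genes. Dabigatran against sham gave 2 higher and 2 lower (11.7% and 6.82% of all genes), with a median of -0.33. Against untreated hearts dabigatran gave 2 higher and 1 lower, against 13.8% of all genes called in either direction. There 13 of the 14 fold changes were above 0, with a median of 0.45, while Rgs5 was at -0.38. In aPC against untreated hearts 5 were higher and 4 lower, against 7.44% and 10.2% of all genes, and against sham 1 was lower, against 1.05%.

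Kcnj8 encodes Kir6.1, the pore that pairs with SUR2 in the channels of mural cells. It measured 5.69, 5.77 and 5.45 in sham, 5.36 and 4.33 in untreated, 5.76 and 5.76 in rivaroxaban, 5.30 and 5.50 in dabigatran, and 5.86 and 5.91 in aPC hearts. The untreated pair differed by about 1 doubling and lay below sham, at -0.79 ± 0.25 (adjusted p = 0.0632). Against untreated, Kcnj8 rose in aPC hearts by 1.04 ± 0.27 (adjusted p = 0.0276). In dabigatran against sham hearts Kcnj8 overlapped, at means of 5.40 and 5.64. Abcc8 and Kcnj11, subunits of related channels that were chosen after their values were seen, stood lower in that comparison. Abcc8 fell by 0.91 ± 0.25 (adjusted p = 0.0303), and Kcnj11 was at -0.64 ± 0.21 (adjusted p = 0.0549) with separate libraries. In untreated against sham hearts Kcnj11 stood at -0.69 ± 0.21 (adjusted p = 0.0557) and Abcc8 at -0.68 ± 0.25 (0.0971), also with separate libraries.

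Notch3 was set beside 15 other genes of its pathway. In untreated against sham hearts 0 of the 15 were called, against 10.6% of all genes. In aPC against untreated hearts 6 were called lower and 0 higher, with a median of -0.68 against 0.07 over all genes, of which 10.2% were called lower. Notch1 fell by 1.80 ± 0.22, Notch2 by 1.04 ± 0.25 and the target gene Hes1 by 0.90 ± 0.23. In aPC against sham 2 were called lower, with Notch1 at -1.20 ± 0.20, against 1.05% of all genes, and the median was -0.65. The 2 aPC comparisons share the aPC libraries.

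Rgs5 was set beside 12 tested genes of its family. In dabigatran against sham 4 of them were called higher and 0 lower (11.7% and 6.82% of all genes), with Rgs18, a regulator of platelets and blood cells, up by 1.26 ± 0.32, while Rgs5 fell. In rivaroxaban against dabigatran 5 were lower and 1 higher, against 14% and 9.39%. Of 9 tested regulators of smooth muscle transcription, 1 was called lower in untreated against sham (Foxo4, a forkhead factor, by 0.38 ± 0.11), against 5.52% of all genes. In rivaroxaban against dabigatran 3 of the 9 were higher and 0 lower, Foxo4 among them by 0.81 ± 0.12, against 9.39% of all genes called higher. Of 18 ligands and receptors of the vessel wall, 4 were higher and 4 lower in untreated against sham, against 5.07% and 5.52% of all genes. Ednrb (the endothelin B receptor) rose by 1.62 ± 0.21, and S1pr2 (a sphingosine 1-phosphate receptor) fell by 1.08 ± 0.18. In rivaroxaban against dabigatran 2 were higher and 6 lower (9.39% and 14% of all genes), with Agtr1a, the angiotensin receptor that contracts vessels, up by 1.08 ± 0.19.

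Markers of other cell types moved with the groups. The heart muscle list, at 51003 to 52000 summed CPM in dabigatran hearts, was at least 64190 in the other 9 libraries. Of its 8 tested genes 2, Myh6 and Ryr2, were called lower in dabigatran against sham, against 6.82% of all genes. Activated fibroblast markers summed to 725 and 1237 CPM in dabigatran hearts and to between 156 and 409 elsewhere. Neutrophil markers summed to between 592 and 1041 CPM in dabigatran hearts, 108 and 165 in untreated, and 18 and 50 in sham and rivaroxaban hearts. In aPC hearts these sums were 43 and 109 CPM. Summed fibroblast markers were lowest in dabigatran (1407 to 1915) and untreated hearts (1569 to 2037). Summed endothelial markers were highest in untreated (1875 to 1960) and lowest in aPC hearts (1400 to 1436). Of 10 endothelial genes, 3 were called higher and 2 lower in untreated against sham, against 5.07% and 5.52% of all genes. Macrophage markers summed to 286 to 376 CPM in untreated hearts, 582 to 769 in sham, 458 to 482 in rivaroxaban, 677 to 834 in dabigatran and 782 to 815 in aPC hearts. Of 8 macrophage genes, 5 were called lower in untreated against sham, against 5.52% of all genes. In dabigatran and in aPC against untreated 6 were called higher, against 8.71% and 7.44% of all genes. No gene of these lists was at 0 in all libraries. Acta2 is made by activated fibroblasts and Abcc9 by heart muscle, and the part of these lists in the fold changes was not tested.

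**Figure D4:**
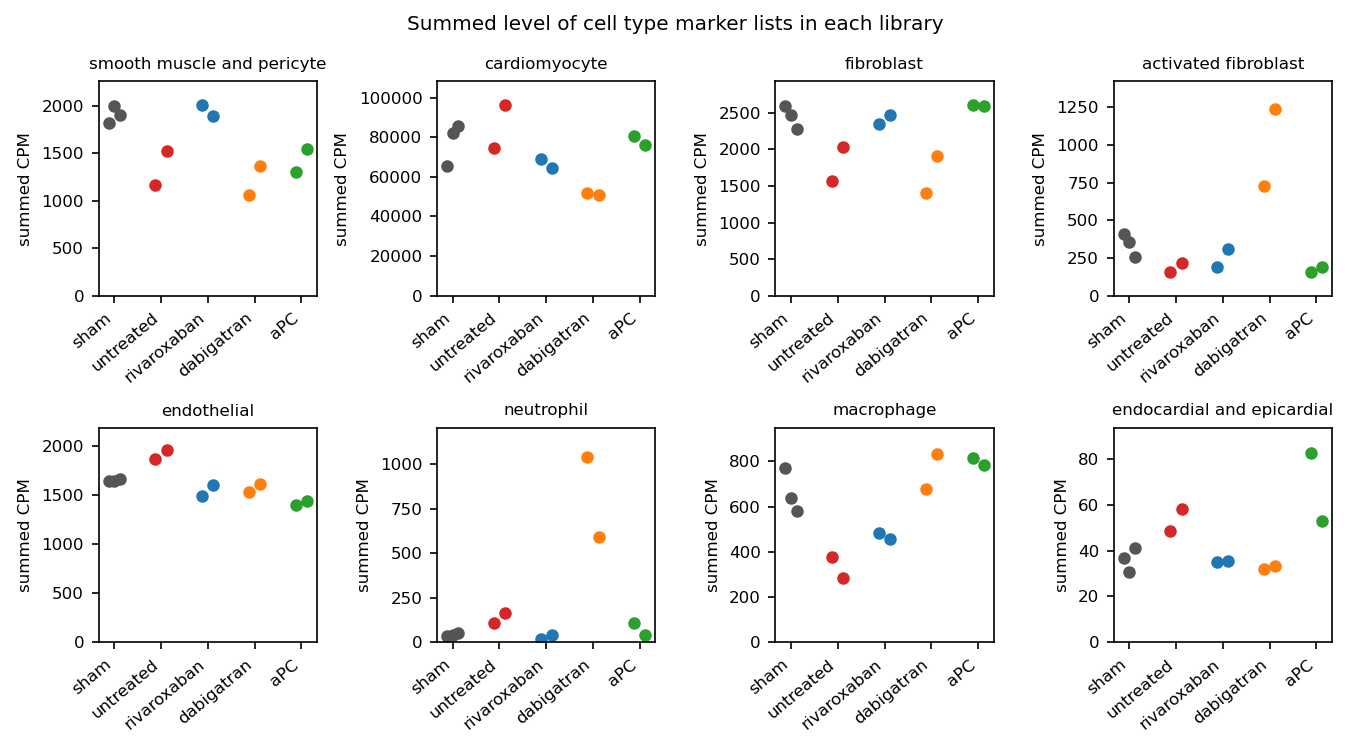
Summed CPM of cell type marker lists in the 11 libraries, on linear axes that start at 0. Points are libraries. The 9 smooth muscle and pericyte genes are high in sham and rivaroxaban hearts, at 1823 to 2004 CPM, and the dabigatran points stand apart for heart muscle, activated fibroblast and neutrophil markers.

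Summed over the 9 genes, sham libraries held 1823 to 1999 CPM and rivaroxaban libraries 1892 to 2004. Untreated libraries held 1166 to 1528, dabigatran 1062 to 1367 and aPC 1299 to 1546, all below both former groups. This sum is carried mainly by Rgs5, Smtn, Abcc9 and Acta2, the more abundant genes.

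The genes most like 4 of the 9 in their pattern over the 11 libraries were found by the root mean square difference between log2 values centred on the mean of each gene. For Myh11 they were Dock6 (0.257), Gpr20 (0.293), Notch3 (0.293), Map4k2 (0.308) and the smooth muscle leiomodin Lmod1 (0.321), with Smtn in the seventh place (0.323). Notch3 was nearest to Ache (0.168), Dock6 (0.182), the long noncoding RNA Bvht (0.204), Adcy3 (0.208) and Lrp1 (0.213). Rgs5 was nearest to Isoc2a (0.0938), Nceh1 (0.0984), Apbb1 (0.103), Gsn (0.109) and Atp5s (0.114), and of the 9 genes Abcc9 was closest, at 0.215. Acta2 was nearest to Ngef (0.339), Scml4 (0.348), Plekho1 (0.354), Tbx15 (0.358) and Hsph1 (0.387). Tagln was closest among the 9 at 0.441, and the root mean square of Acta2 around its own mean was 0.615. Ngef, Tbx15 and Gpr20 reached at most 0.86, 0.35 and 0.21 log2 CPM, so counting error weighs on their patterns.

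By this measure the 9 genes did not share 1 pattern. Myh11 and Notch3 were 0.293 apart, and Mylk and Smtn lay between 0.226 and 0.368 from each of them. Rgs5 was 0.663 from Myh11 and 0.769 from Acta2. These distances describe the same libraries as the levels above, and values depend on how strongly a gene varies.

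Near copies limit the reading of Acta2. Actg2, the gamma actin of smooth muscle, had 9 to 81 reads per library, and stood at -1.53 ± 0.50 in untreated against sham hearts (adjusted p = 0.0715). The skeletal and cardiac actins Acta1 and Actc1 were not analysed here. How reads shared between actins were counted is not given in the sources used here.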

How the data were processed

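The deposited table holds log2 CPM (counts scaled to library size) normalized by the authors with the trimmed mean of M values, as its name states. The submitters' processing notes name STAR, Trim Galore, edgeR, FastQC and bcl2fastq, and build mm10. The strand setting, counter, annotation and any gene filter were not given in the sources used here, so overlapping genes are uncertain. Of 15 labelled samples 11 were analysed and 4 were not analysed here. Values were whole multiples of 1 read, to within 0.05, in 100% of cases, which gave the reads. Genes at 0 or more in at least 3 libraries (13541) entered 1 two-sided limma-trend fit of 5 group means, with Benjamini-Hochberg adjustment over them (R 4.3.3, limma 3.58.1), tested on simulated data. Of 16658 identifiers 16654 matched GENCODE M21. Named were the 9 genes, up to 4 per list with the smallest p in untreated against sham and rivaroxaban against untreated, 5 nearest genes for 4 of them, actin copies and Kcnj8; Gm42418, Abcc8 and Kcnj11 were added after their values were seen. The genes and lists were chosen with earlier results of these data known. Alternatives were no filter, a stricter filter (2), median centring, quantile normalization, log2(CPM + 1), gene length trend removal, limma voom on recovered reads, library weights, only the groups compared, and each library left out. The shared spread is mostly below that of the untreated pair, so errors against untreated run small.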

Additional observations from a re-analysis of the deposited data

How the results depend on the processing

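Of 72 pairs of gene and comparison, 42 had an unadjusted p under 0.05, and none of these changed direction under any of the 20 alternatives. Of the other 30, 22 changed sign under some alternative, never with a call. With library weights, which gave each untreated library a weight of 0.242, the genes called numbered 0 in untreated against sham, 0 in rivaroxaban against untreated, 0 in dabigatran against untreated, 0 in aPC against untreated and 6 in aPC against sham. With only the groups compared in the fit they numbered 0, 0, 0, 0 and 7 in the same order. In dabigatran against untreated, limma voom gave 2 and quantile normalization 0. With 1 library left out, the genes called ran from 0 to 6 in untreated against sham, 0 to 5 in rivaroxaban against untreated, 0 to 3 in dabigatran against untreated, 0 to 3 in aPC against untreated, 1 to 5 in rivaroxaban against dabigatran, 1 to 5 in dabigatran against sham and 0 to 5 in aPC against sham. In rivaroxaban against sham they were 0 throughout. The highest count in untreated against sham, 6, came without untreated 19 or a dabigatran library. Runs that leave 1 library in a group assume that it varies like the others. Counts under an alternative are given without the share of all genes called in the same run, so they describe the group alone. Median centring moved the median of all genes by -0.11 in dabigatran against untreated and by 0.10 in rivaroxaban against dabigatran. No paired analysis was possible because no replicate number is shared between groups. Cnn1, with 24 to 225 reads, is the gene whose precision depth limits most.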
